A study of Mus musculus with 6 samples.

Results

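Fatty acid oxidation genes were examined in non-tumorous liver tissue of 3 MUTYH-null mice that had developed liver tumors and 3 wild-type mice without liver tumors, with 1 whole-transcript Affymetrix array per mouse. A list of 41 genes was compared, covering the mitochondrial and peroxisomal pathways, acyl-CoA thioesterases, and genes of ketone bodies and fasting, with the regulator Ppara. Of these, 39 were measured among the 22180 genes tested. Acsl1 was not named by any probe set of the probe table, and Acot8 was named only together with a second gene. The MUTYH-null mice (Mutyh -/-, labelled HCC) were animals 3003, 3007 and 3008, and the wild-type mice (Mutyh +/+, labelled without HCC) were animals 1025, 1027 and 1001. All 6 were male, of C57BL/6 background, and were given the HFHC + high-iron diet, a high-fat high-carbohydrate chow with sugared drinking water and added iron, for 9 months from 8 weeks of age. No mouse on a control diet was among these arrays. Since every MUTYH-null mouse and no wild-type mouse had tumors, the effects of genotype and of tumor development cannot be told apart. MUTYH, a DNA glycosylase of base excision repair, was lost through the germline in these mice and so in every cell type. The labels do not say whether the mice were littermates or when in their feeding cycle they were killed.

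The liver burns fatty acids in 2 organelles. Mitochondria shorten medium and long chains, the long ones after carnitine carries them across the membrane, and hand the electrons to the respiratory chain. Peroxisomes shorten very long, branched and bile acid side chains and produce hydrogen peroxide on the way. The nuclear receptor PPARα, which binds fatty acids, switches on most genes of both routes in fasting and under fat-rich diets. Part of the acetyl-CoA that results is turned into ketone bodies for other organs.

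The 5 largest negative differences between MUTYH-null and wild-type liver were those of the fasting hormone gene Fgf21, the acyl-CoA thioesterase genes Acot1, Acot3 and Acot2, and the peroxisomal thiolase gene Acaa1b. The mitochondrial genes, with the exception of Hadhb, lay between -0.16 and 0.14 log2. All values are RMA log2 values, and differences are MUTYH-null minus wild-type with the limma standard error. No gene of the list passed a Benjamini-Hochberg adjusted p under 0.05 in limma over all genes tested, where the smallest adjusted p was 0.963, and the adjusted p of the 39 lay between 0.963 and 0.999. At an unadjusted p under 0.05, 3 of the 39 were lower in MUTYH-null liver, namely Acaa1b, Hadhb and Acot3, where 2.80% of all genes were. None of the 39 was higher at that level, where 2.29% of all genes were. The 3 MUTYH-null mice lay wholly below the 3 wild-type mice in 3 genes (Hadhb, Eci1 and Acaa1b), beside 5.29% of all genes, and wholly above them in 2 genes (Cpt1a and Acot12), beside 4.23% of all genes. The difference was negative in 29 of the 39, beside 52.5% of all genes, and its median was -0.05 log2, beside -0.01 log2 over all genes.

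**Figure D1:**
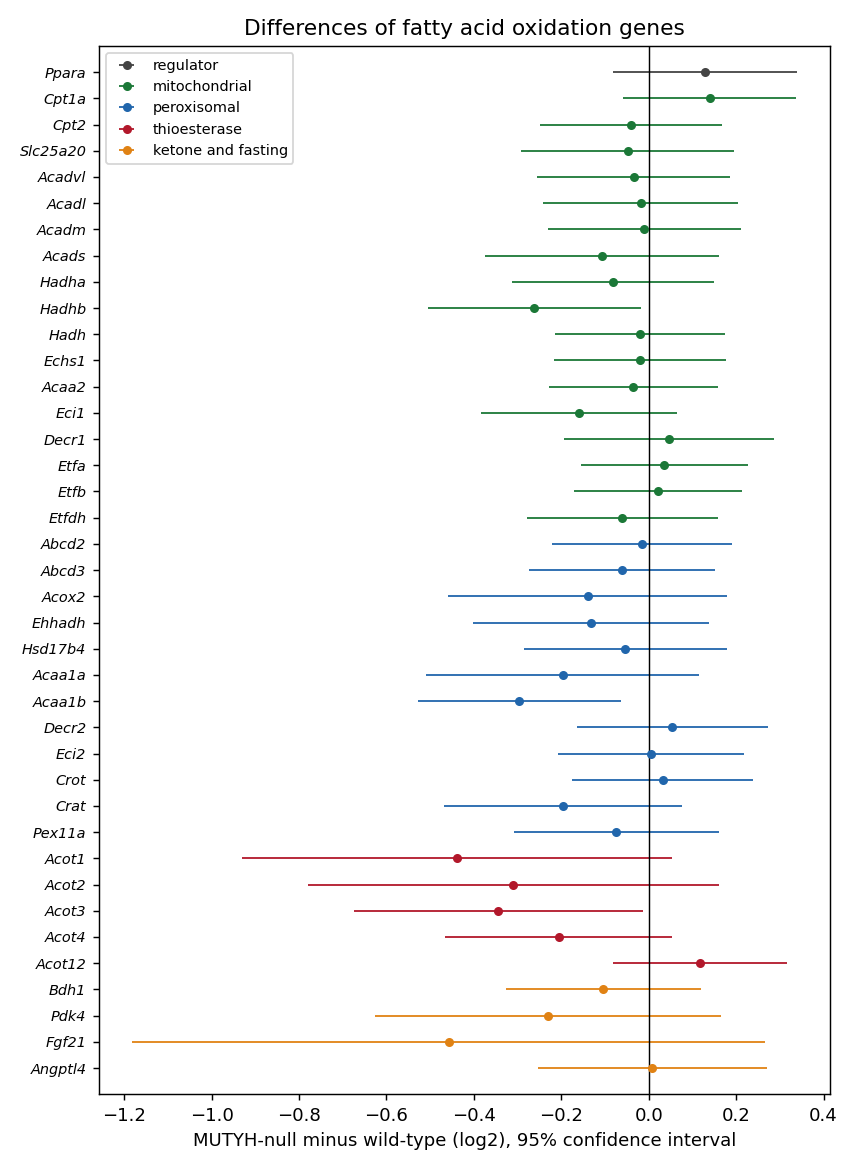
Difference of each gene between MUTYH-null and wild-type liver (log2, horizontal axis), with its 95% confidence interval from limma, n = 3 mice per group, colored by role. The intervals of Hadhb, Acaa1b and Acot3 lie below 0, and that of Fgf21, from -1.18 to 0.27 log2, is the widest.

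Mouse 1001 and mouse 3007 stood at the ends of the list. The wild-type mouse 1001 had the highest value of the 6 mice in 25 of the 39 genes and the lowest in none. Over all genes it was the highest in 18.8% and the lowest in 18.1%. The MUTYH-null mouse 3007 had the lowest value in 17 of the 39, which is 43.6%, beside 17.6% of all genes. The median deviation of the 39 genes from their mean over the 6 mice was -0.04 log2 in mouse 3003, -0.06 log2 in mouse 3007 and 0.04 log2 in mouse 3008, against -0.03 log2 in mouse 1025, -0.04 log2 in mouse 1027 and 0.14 log2 in mouse 1001. Mouse 1001 stood apart on this summary, and the other wild-type mice lay among the MUTYH-null mice. Without mouse 1001 the median difference of the list was -0.005 log2, and 7 of the negative differences turned positive. Without mouse 3007 or without mouse 1001, no gene of the list was lower at an unadjusted p under 0.05. Without mouse 3003, mouse 3008, mouse 1025 or mouse 1027 the number was 4, 4, 3 and 2. Over all genes, 2.39% to 3.49% were lower at that level with each mouse left out. Among related lists, mouse 1001 was the highest in 5 of 9 further ketone body genes, 14 of 32 further peroxisomal genes, 13 of 35 other PPARα targets, 6 of 22 further mitochondrial oxidation genes and 3 of 13 other thioesterase genes. It was the highest in 5 of 18 genes of a fatty acid synthesis list, 12 of 55 respiratory chain genes and 4 of 21 partners of PPARα.

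**Figure D2:**
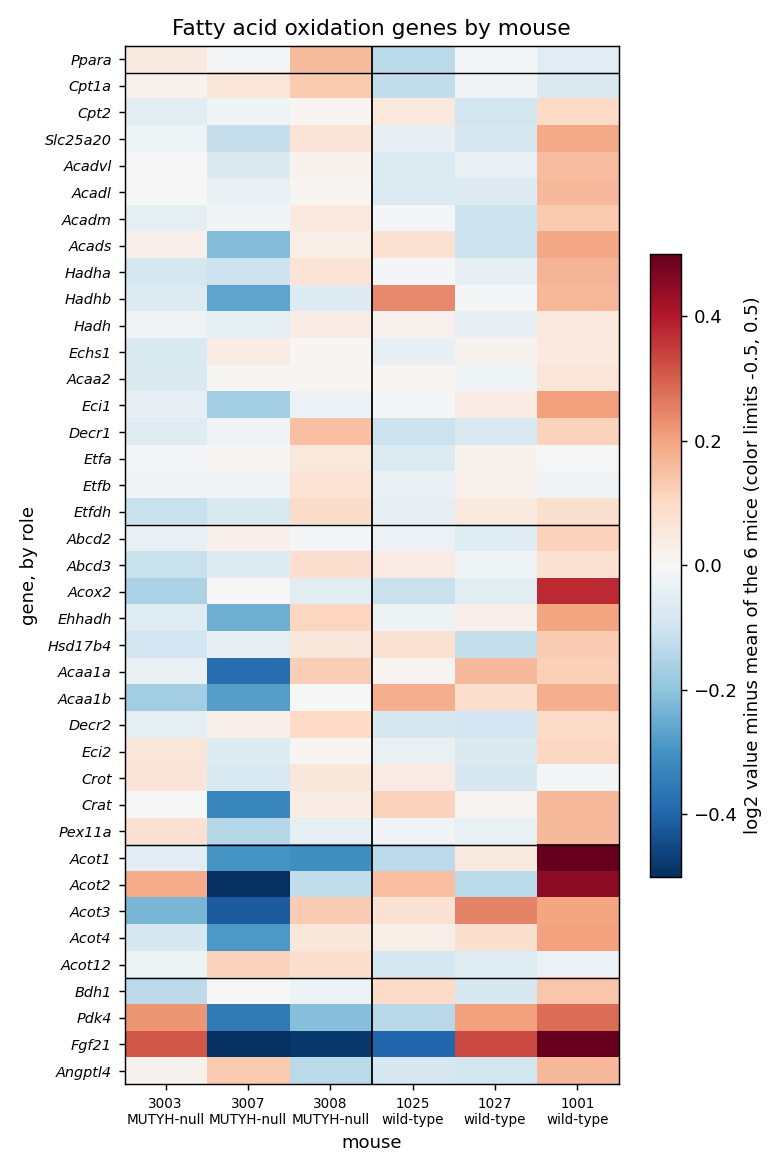
Log2 value of each gene minus its mean over the 6 mice, with the MUTYH-null mice in the left 3 columns and the wild-type mice in the right 3, and genes ordered by role. The column of wild-type mouse 1001 is red in most rows, and that of MUTYH-null mouse 3007 is blue for Acot1 to Acot4, Acaa1a, Acaa1b, Crat and Fgf21; colors end at -0.5 and 0.5, beyond which values look alike.

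**Figure D3:**
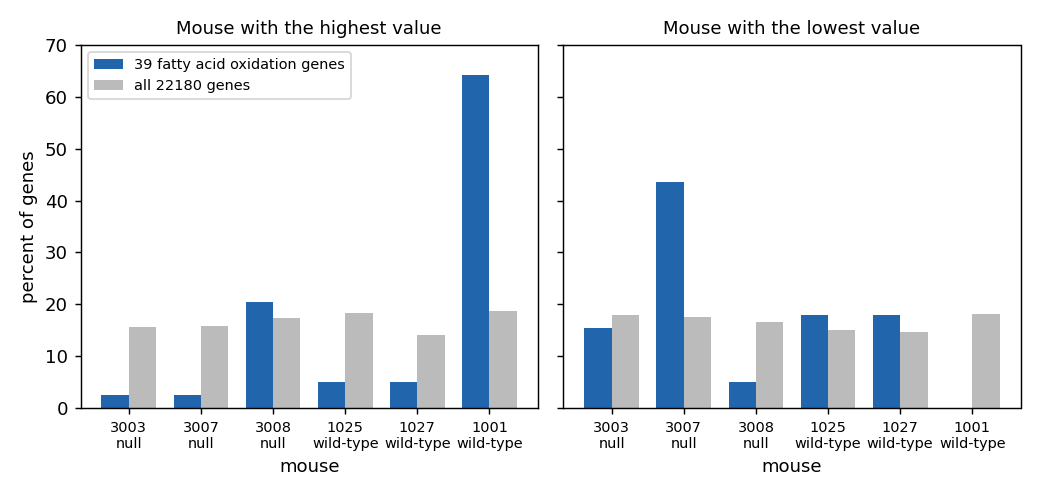
Percent of genes in which each mouse had the highest (left) or the lowest (right) value of the 6, for the 39 fatty acid oxidation genes (blue) and all 22180 genes (gray). Mouse 1001 was the highest in 64.1% of the fatty acid oxidation genes and mouse 3007 the lowest in 43.6%.

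The tissue was checked against markers of the cells a liver sample can hold. Markers are called higher or lower at an unadjusted p under 0.05, where 2.29% of all genes were higher and 2.80% lower. Of 16 hepatocyte markers, 12 had a positive difference and none was higher or lower at an unadjusted p under 0.05. Their mean level was 11.92 to 11.98 in MUTYH-null livers and 11.88 to 11.93 log2 in wild-type livers. Alb, for albumin, was between 13.18 and 13.20 log2 in MUTYH-null livers and between 13.15 and 13.24 log2 in wild-type livers. Of 12 macrophage and Kupffer cell markers, 6 had a positive difference, Gpnmb was higher (0.42 log2) and Timd4 and Marco were lower (-0.64 and -0.38 log2). They averaged 6.64 to 6.94 in MUTYH-null livers and 6.50 to 7.15 log2 in wild-type livers, and mouse 1001 was the lowest in 8 of them. Of 11 stellate cell and fibroblast markers, 9 had a positive difference, Lum was higher (0.62 log2) and none was lower. They averaged 6.88 to 7.38 in MUTYH-null livers and 6.82 to 7.06 log2 in wild-type livers, and mouse 3007 was the highest in 9 of them. Of 7 cholangiocyte markers, 6 had a positive difference and Muc1 was higher (0.57 log2). Their mean levels did not overlap, at 5.16 to 5.32 in MUTYH-null livers and 4.93 to 5.15 log2 in wild-type livers, and mouse 1001 was the lowest in 5 of them. Of 9 B and plasma cell markers, 7 had a positive difference and 2 a negative one. Only Sdc1 was at an unadjusted p under 0.05, and it was lower (-0.31 log2). On the mean of its probe sets Sdc1 lost its call (-0.22 log2). The 9 markers averaged 5.63 to 6.65 in MUTYH-null livers and 5.60 to 5.78 log2 in wild-type livers. Mouse 3008, at 6.65 log2, was the highest in 7 of them. Of 10 endothelial markers, 6 had a positive difference and Lyve1 was higher (0.46 log2). These 10 averaged 7.69 to 7.89 in MUTYH-null livers and 7.67 to 7.83 log2 in wild-type livers. None was higher or lower among 11 T and NK cell markers (3.98 to 4.26 in MUTYH-null livers, 3.89 to 4.18 log2 in wild-type livers) and 8 adipocyte markers (5.44 to 5.66 in MUTYH-null livers, 5.43 to 5.57 log2 in wild-type livers). The same held for 7 markers of muscle and pancreas (3.95 to 4.20 in MUTYH-null livers, 4.09 to 4.17 log2 in wild-type livers) and 7 liver tumor markers (4.43 to 4.65 in MUTYH-null livers, 4.49 to 4.64 log2 in wild-type livers). The part of these cells in the values below was not tested. In tissue RNA, fewer cells of a type and less RNA per cell cannot be told apart. The probe set of Mutyh gave 4.43, 4.65 and 4.34 in the MUTYH-null livers and 4.44, 4.36 and 4.48 log2 in the wild-type livers. The probes were dim and their place in the deleted gene is not known here, so they do not check the genotype labels.

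Ppara, which encodes the receptor itself, had 9.14, 9.08 and 9.25 log2 in mice 3003, 3007 and 3008 (MUTYH-null), against 8.96, 9.09 and 9.04 log2 in wild-type livers 1025, 1027 and 1001. The highest value was that of mouse 3008, and the groups overlapped, since mouse 3007 lay just below mouse 1027. The difference was 0.13 log2 (standard error 0.09), with an exact two-sided permutation p of 0.2. Here 0.1 is the smallest p that 3 mice against 3 can give. The sign of Ppara was the same with each mouse left out, between 0.08 and 0.17 log2.

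Entry of long chains into the mitochondrion is governed by CPT1A, the enzyme that moves acyl groups from coenzyme A to carnitine and is inhibited by malonyl-CoA. Cpt1a was 10.80, 10.84 and 10.91 in the MUTYH-null livers and 10.65, 10.77 and 10.71 log2 in the wild-type livers. All MUTYH-null mice lay above all wild-type mice; mice 3003 and 1027 were the closest pair. The difference was 0.14 log2 (standard error 0.09), a 1.10-fold level, with a 95% interval from -0.06 to 0.34 log2 (exact permutation p = 0.1). The next steps did not share this order. Cpt2, for the enzyme that re-forms acyl-CoA inside, was 9.24, 9.27 and 9.30 in MUTYH-null livers and 9.34, 9.20 and 9.39 log2 in wild-type livers, a difference of -0.04 log2. Slc25a20, for the carnitine and acylcarnitine translocase, averaged 9.32 ± 0.09 in MUTYH-null livers and 9.37 ± 0.15 log2 in wild-type livers (SD, n = 3 each).

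The acyl-CoA dehydrogenases open each turn of the spiral. Acadm, for the medium-chain enzyme, was 10.96, 11.00 and 11.06 in MUTYH-null livers and 11.00, 10.90 and 11.14 log2 in wild-type livers. The difference of -0.01 log2 had a 95% interval from -0.23 to 0.21 log2, so a true difference anywhere in that range is compatible with these values. Acadl, for the long-chain enzyme, differed by -0.02 log2, and Acadvl, for the very long-chain enzyme, by -0.03 log2. Acads, for the short-chain enzyme, averaged 9.47 ± 0.14 in MUTYH-null livers and 9.58 ± 0.15 log2 in wild-type livers (SD, n = 3 each). In Acadl and Acadvl the highest value was that of mouse 1001, and without it the differences were 0.06 and 0.04 log2.

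The remaining steps of each turn use a hydratase, a dehydrogenase and a thiolase, which for long chains are joined in the trifunctional protein. Its subunit genes Hadha and Hadhb lie side by side on chromosome 5. Hadha was 10.40, 10.38 and 10.55 in MUTYH-null livers and 10.47, 10.44 and 10.66 log2 in wild-type livers, with overlapping groups and a difference of -0.08 log2 (standard error 0.10). Hadhb was 5.03, 4.83 and 5.03 in MUTYH-null livers and 5.33, 5.09 and 5.26 log2 in wild-type livers. All MUTYH-null mice lay below all wild-type mice. The difference was -0.26 log2 (standard error 0.11; unadjusted p = 0.0389, limma adjusted p = 0.963), and it lost its call without mouse 3007, 1025 or 1001. The Hadhb probe set was dim, near the median of all probe sets (4.52 log2), which limits what it can show.

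The remaining mitochondrial genes had smaller differences than Hadhb. Hadh, the short-chain hydroxyacyl-CoA dehydrogenase gene, had the smallest spread of the list, 0.10 log2 over all 6 mice, and differed by -0.02 log2. Echs1, the short-chain hydratase gene, and Acaa2, the mitochondrial thiolase gene, differed by -0.02 and -0.04 log2. Eci1 and Decr1 encode enzymes that handle double bonds of unsaturated chains. Eci1 was 9.09, 8.96 and 9.10 in MUTYH-null livers and 9.12, 9.17 and 9.33 log2 in wild-type livers, so that mice 3008 and 1025 were close but the groups did not overlap. Its difference was -0.16 log2 (standard error 0.10; unadjusted p = 0.140). Decr1 had 0.05 log2. Etfa, Etfb and Etfdh, which pass electrons from the dehydrogenases to ubiquinone, had 0.04, 0.02 and -0.06 log2. In all, the 17 mitochondrial genes had a median difference of -0.03 log2, with 4 positive and 13 negative. Their range over the 6 mice had a median of 0.23 log2, beside 0.39 log2 for all genes. None of the 17 averaged below the median of all probe sets, whereas 9314 of the 22180 genes did. The ranges were not compared at equal brightness.

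In the peroxisome, the last step of each turn is made by the thiolases of Acaa1a and Acaa1b, and Acaa1b had the largest difference of the peroxisomal genes. Acaa1b was 10.52, 10.42 and 10.70 in MUTYH-null livers and 10.87, 10.78 and 10.87 log2 in wild-type livers. The groups did not overlap, and mouse 3008 was the MUTYH-null mouse nearest to wild type. The difference was -0.30 log2 (standard error 0.10), or 0.815-fold, with an unadjusted p of 0.0188 and a limma adjusted p of 0.963. It lay between -0.37 and -0.23 log2 with each mouse left out, and lost its call without mouse 3003, 3007, 1025 or 1001. Acaa1a was 7.35, 7.01 and 7.51 in MUTYH-null livers and 7.40, 7.55 and 7.51 log2 in wild-type livers, where mouse 3007 alone was low. The difference of -0.20 log2 was -0.06 log2 without that mouse. The pair encode nearly identical enzymes, and how far the probes tell them apart is not known here.

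The bifunctional enzymes before the thiolase are encoded by Ehhadh, a PPARα target in rodents, and Hsd17b4. Ehhadh was 9.78, 9.59 and 9.95 in MUTYH-null livers and 9.81, 9.87 and 10.04 log2 in wild-type livers, with overlapping groups and a difference of -0.13 log2 (standard error 0.12). Hsd17b4 had -0.05 log2. Acox2, the oxidase gene for branched chains and bile acid precursors, was 8.61, 8.77 and 8.71 in MUTYH-null livers and 8.65, 8.71 and 9.14 log2 in wild-type livers. Here mouse 1001 stood alone, and without it the difference of -0.14 log2 was 0.01 log2. The importer genes Abcd2 and Abcd3 had -0.02 and -0.06 log2.

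Among the other peroxisomal genes, Decr2, which acts on double bonds, had the largest positive difference, at 11.12, 11.19 and 11.26 in MUTYH-null livers and 11.08, 11.07 and 11.26 log2 in wild-type livers, or 0.05 log2. Eci2, an isomerase gene, had 0.01 log2. Crot and Crat encode the enzymes that put shortened chains back on carnitine. Crot had 0.03 log2, and Crat averaged 8.63 ± 0.20 in MUTYH-null livers and 8.83 ± 0.08 log2 in wild-type livers (SD, n = 3 each), a difference of -0.20 log2 that was -0.08 log2 without mouse 3007. Pex11a, a gene of peroxisome division, had -0.07 log2. Over the 12 peroxisomal genes the median was -0.07 log2, with 3 positive and 9 negative.

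Acyl-CoA thioesterases split acyl-CoA into free fatty acid and coenzyme A, and the mouse carries a block of such genes on chromosome 12 in the order Acot2, Acot1, Acot4, Acot3, Acot5 and Acot6. ACOT2 acts in mitochondria, ACOT1 in the cytosol, and ACOT3 and ACOT4 in peroxisomes. Because Acot1 to Acot4 all had negative differences and PPARα is known to induce genes of this block in mice, the 100 bases before each start site are shown, with the PPAR-type site AGGTCA, read on either strand, in capitals. The sequences are those of RefSeq for GRCm38.p6, plus strand.
Acot2, chr12:83987761-83987860: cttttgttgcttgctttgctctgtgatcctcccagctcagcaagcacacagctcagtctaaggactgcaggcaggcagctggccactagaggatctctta
Acot1, chr12:84009402-84009501: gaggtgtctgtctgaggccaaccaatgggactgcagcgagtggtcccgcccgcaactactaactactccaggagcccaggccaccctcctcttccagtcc
Acot4, chr12:84038279-84038378: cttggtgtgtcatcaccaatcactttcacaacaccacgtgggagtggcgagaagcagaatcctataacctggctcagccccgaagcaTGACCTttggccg
Acot3, chr12:84052044-84052143: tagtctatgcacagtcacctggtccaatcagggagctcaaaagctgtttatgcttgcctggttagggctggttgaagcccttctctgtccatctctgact

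Of the 4 stretches only that of Acot4 holds the site, on the opposite strand. Windows of 250 bases before and 50 after the start were found for 33 of the 39 genes, 37 windows in all. AGGTCA, on either strand, lay in 8 of the 37 windows, which is 21.6%, beside 16.3% of all 32851 windows. These belonged to 7 of the 33 genes, namely Acadm, Echs1, Acadvl, Acot4, Acot3, Acot12 and Cpt1a. Acot3 has overlapping windows that hold the same site, so this site entered the count of windows more than once. An exact copy of the full PPAR element, here AGGTCA repeated in the same direction with 1 base between, lay in none of the 37. Only 0.0396% of all windows held such a copy on either strand, so its absence from 37 windows says little. Repeats with mismatched bases, also beside the single site of Acot4, were not searched. A match is a description of letters in a short window, and PPAR sites outside it were not searched.

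Acot1 was 6.66, 6.43 and 6.41 in MUTYH-null livers and 6.59, 6.76 and 7.47 log2 in wild-type livers. Mouse 1001 was far above the rest, and mouse 3003 lay above mouse 1025. The difference was -0.44 log2 (standard error 0.21; unadjusted p = 0.0738), which was -0.17 log2 without mouse 1001 and -0.61 log2, past an unadjusted p under 0.05, without mouse 1025. Acot2 was 9.99, 9.28 and 9.68 in MUTYH-null livers and 9.95, 9.67 and 10.25 log2 in wild-type livers. The groups overlapped widely, with mouse 3007 lowest and mouse 1001 highest. The difference was -0.31 log2 (standard error 0.20), which was -0.12 log2 without mouse 3007, -0.16 log2 without mouse 1001, and -0.48 log2, past an unadjusted p under 0.05, without mouse 3003.

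Acot3 was 6.65, 6.46 and 7.01 in MUTYH-null livers and 6.95, 7.13 and 7.08 log2 in wild-type livers. Only mouse 3008 reached the wild-type range. The difference was -0.34 log2 (standard error 0.14), or 0.788-fold, with an unadjusted p of 0.0430, a limma adjusted p of 0.963 and an exact permutation p of 0.2. It was -0.22 log2 without mouse 3007, and lost its call on leaving out any 1 of mice 3003, 3007, 1027 and 1001 and after quantile normalization. Acot4 was 6.84, 6.63 and 6.97 in MUTYH-null livers and 6.94, 7.00 and 7.12 log2 in wild-type livers, a difference of -0.21 log2 (standard error 0.11; unadjusted p = 0.105). It was -0.11 log2 without mouse 3007 and -0.29 log2, past an unadjusted p under 0.05, without mouse 3008. On the mean of both Acot4 probe sets it was -0.28 log2 and passed an unadjusted p under 0.05.

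All 4 of these genes kept a negative difference with each mouse left out. Further along the block, Acot5 and Acot6 had -0.16 log2 (standard error 0.12) and -0.28 log2 (standard error 0.12; unadjusted p = 0.0502), both from dim probe sets. The genes on either side, Riox1 and Dnal1, had -0.05 and 0.07 log2. The Acot genes of this block are similar in sequence, so their probe sets may share signal and are not 6 independent measurements. On chromosome 13, Acot12, for a cytosolic acetyl-CoA thioesterase, had the other sign. It was 9.68, 9.82 and 9.79 in MUTYH-null livers and 9.62, 9.65 and 9.68 log2 in wild-type livers, so that mouse 3003 lay barely above mouse 1001 and the groups did not overlap. The difference was 0.12 log2 (standard error 0.09; unadjusted p = 0.211). The 5 thioesterase genes had a median difference of -0.31 log2, which was -0.12 log2 without mouse 3007 and -0.16 log2 without mouse 1001, and a median range over the 6 mice of 0.67 log2.

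**Figure D4:**
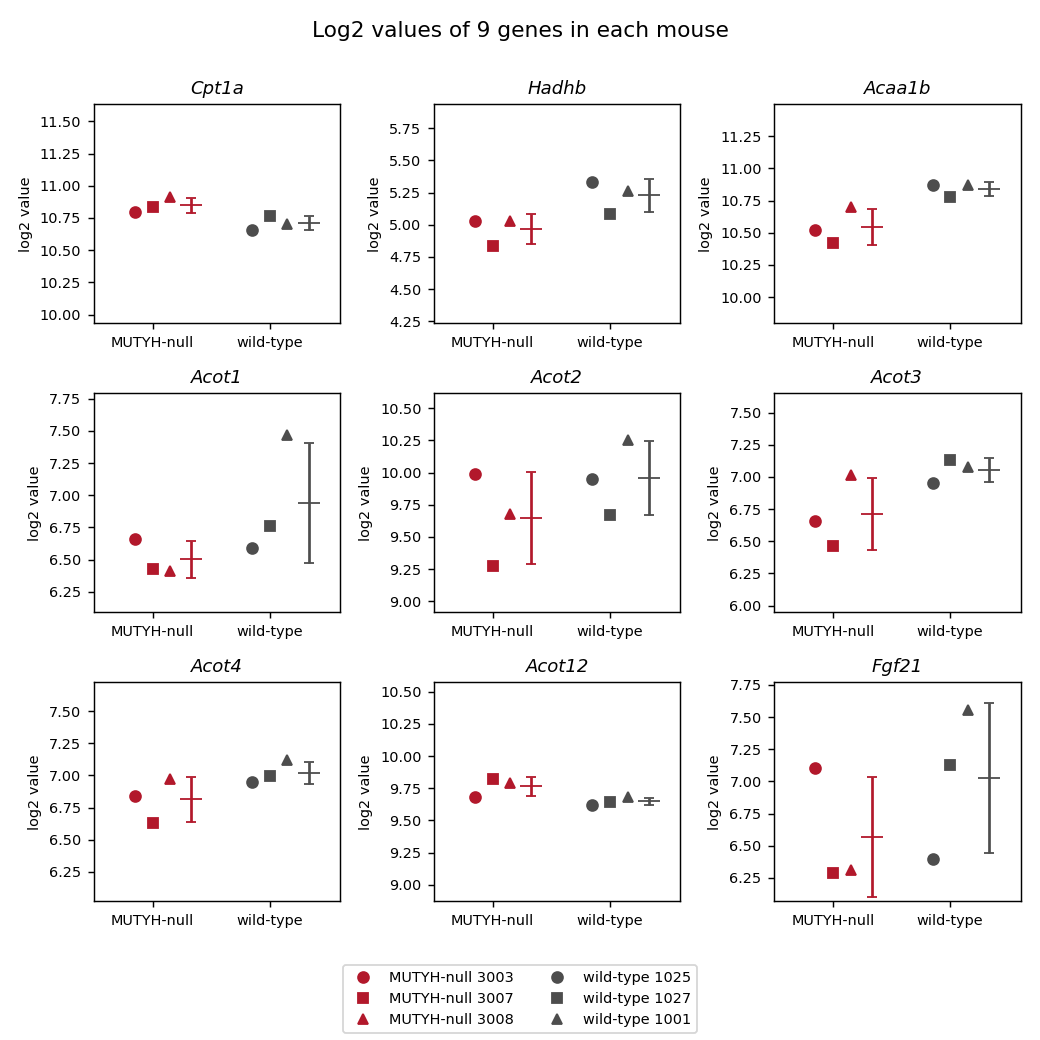
Log2 values of 9 genes in each mouse (points, with a symbol per mouse), with the mean and SD of each group (bars, n = 3) and MUTYH-null mice on the left of each panel; every vertical axis spans an equal log2 range. Hadhb and Acaa1b are lower in every MUTYH-null mouse, Cpt1a and Acot12 are higher in every one, and wild-type mouse 1001 is the highest in Acot1, Acot2, Acot4 and Fgf21.

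Among genes of ketone bodies and fasting, Fgf21 and Pdk4 varied widely between mice of the same group. Fgf21, for the hormone that the liver releases in fasting and under other metabolic stress, was 7.11, 6.29 and 6.31 in MUTYH-null livers and 6.40, 7.13 and 7.55 log2 in wild-type livers. Mouse 3003 sat with the high wild-type mice and mouse 1025 with the low MUTYH-null mice. The difference was -0.46 log2 (standard error 0.31; unadjusted p = 0.183 in limma). It was -0.19 log2 without mouse 1001, and -0.73 and -0.77 log2, each past an unadjusted p under 0.05, without mouse 3003 and without mouse 1025. Its range over the 6 mice, 1.27 log2, was the largest of the list. Pdk4, for the kinase that shuts pyruvate dehydrogenase when fat is burned, was 7.21, 6.63 and 6.77 in MUTYH-null livers and 6.84, 7.19 and 7.26 log2 in wild-type livers. Its high and low mice were those of Fgf21, and the difference was -0.23 log2 (standard error 0.17), or -0.40 log2 and past an unadjusted p under 0.05 without mouse 3003.

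Bdh1, for the enzyme that reduces acetoacetate to β-hydroxybutyrate, was 8.03, 8.16 and 8.13 in MUTYH-null livers and 8.25, 8.08 and 8.30 log2 in wild-type livers, or -0.10 log2. Angptl4, a PPARα target that encodes an inhibitor of lipoprotein lipase, was 8.95, 9.06 and 8.80 in MUTYH-null livers and 8.84, 8.84 and 9.10 log2 in wild-type livers. It differed by 0.01 log2, with a 95% interval from -0.25 to 0.27 log2. All 4 genes were highest in mouse 1001. Genes of gluconeogenesis and fasting, 11 measured, averaged 9.23 to 9.51 in MUTYH-null livers and 9.27 to 9.40 log2 in wild-type livers, with Irs2 higher (0.33 log2, overlapping groups) and none lower. Circadian clock genes, 15 measured, averaged 6.61 to 6.74 in MUTYH-null livers and 6.61 to 6.72 log2 in wild-type livers, with none higher or lower. The part of feeding state or time of day in the fasting genes was not tested.

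Further genes of the same pathways were taken from lists outside the 41. At an unadjusted p under 0.05, 2.29% of all genes were higher and 2.80% lower. Of 22 mitochondrial oxidation genes none was higher and 2 were lower at that level. Echdc2, an enoyl-CoA hydratase-like gene, was 8.68, 8.99 and 8.82 in MUTYH-null livers and 9.20, 9.30 and 9.14 log2 in wild-type livers, a difference of -0.38 log2 (standard error 0.11) without overlap. Acsl5, an acyl-CoA synthetase gene, was 10.14, 10.06 and 10.08 in MUTYH-null livers and 10.33, 10.26 and 10.38 log2 in wild-type livers, a difference of -0.23 log2 (standard error 0.09) without overlap. Leaving out any 1 of mice 3007, 3008, 1025 and 1001 ended the call of Acsl5. Of 32 further peroxisomal genes and 9 further ketone body genes, none was higher or lower. Among 13 other thioesterase genes Acot11 was higher, at 6.22, 6.41 and 6.31 in MUTYH-null livers and 6.15, 5.90 and 5.85 log2 in wild-type livers, a difference of 0.35 log2 (standard error 0.11) without overlap.

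Partners of PPARα and genes of malonyl-CoA control, 21 measured, had none higher or lower and a median of -0.03 log2. Of 35 other PPARα targets and FGF21 receptor genes, only Cyp4a12a was lower, with a difference of -0.46 log2 (standard error 0.18), which lost its call without mouse 3003, 3007, 1027 or 1001 and was -0.30 log2 without the last. This fatty acid hydroxylase gene was 8.02, 7.81 and 8.34 in MUTYH-null livers and 8.28, 8.43 and 8.83 log2 in wild-type livers, with overlap. The median of those 35 was -0.04 log2. Cyp4a14, a strongly PPARα-responsive gene of the same family, was 10.95, 10.84 and 11.24 in MUTYH-null livers and 10.83, 10.79 and 11.24 log2 in wild-type livers; it is named here after its values were seen. By comparison, a fatty acid synthesis list had a negative difference in 18 of 18 genes, with a median of -0.13 log2. Of the 18, 5 were lower at an unadjusted p under 0.05, beside 2.80% of all genes. These 5 were Pnpla3 (-0.94 log2), Me1 (-0.44 log2), Fasn (-0.43 log2), Acss2 (-0.37 log2) and Acly (-0.35 log2), each without overlap. Pnpla3, for a lipid droplet protein, is on the list but is not the gene of a synthesis enzyme. In all, 10 of the 18 were lower without overlap, beside 5.29% of all genes. The 55 respiratory chain genes had a median of -0.004 log2, with Uqcr11 higher (0.29 log2) and none lower. Of the genes called in lists outside the 41, markers included, Acsl5, Cyp4a12a, Me1, Uqcr11, Irs2, Timd4, Gpnmb, Sdc1, Muc1 and Lyve1 lost their call on leaving out at least 1 mouse. These medians are set side by side without a test of their difference. Echdc2, Acot11 and Cyp4a12a lie on chromosome 4, as does Mutyh, whereas Acsl5 lies on chromosome 19. Cpt2 and Decr1, also on chromosome 4, were not called. The part of DNA linked to the deleted gene in these calls was not tested, and it cannot be told apart from MUTYH loss here.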

How the data were processed

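The deposited log2 values were the authors' RMA output and were used unchanged. Expression Console and Transcriptome Analysis Console are the tools in the submitters' processing notes. The methods name a human array, but the probe table holds mouse genes. Of 41345 probe sets, 23521 named exactly 1 gene; where several named the same gene, the brightest on average was kept. Array medians lay between 4.51 and 4.55, Pearson's r between arrays was 0.982 to 0.985 across probe sets, and no columns were identical. The number of mice limits the precision. Signals of different probe sets are not comparable, so levels were compared only within a gene.

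Groups were compared over all 22180 genes in limma 3.58.1 (R 4.3.3; lmFit, then eBayes) without covariates, and p-values were adjusted by the Benjamini-Hochberg method. The procedure was run on simulated data with independent genes and planted changes larger than any difference of the list. That run does not show its power for differences of the size seen here. For single genes an exact permutation test over the mice, two-sided, was added. The mice were separate animals, as far as the labels say. The genes and lists were chosen with earlier results of these data known. Every member is named, with values in each mouse for Ppara, for members called or not overlapping, for the extremes of each role and for 15 further genes set by name. Genes of other lists were named where called at an unadjusted p under 0.05. Promoter windows came from RefSeq (GRCm38.p6). Alternatives were a filter on dim genes, quantile normalization, array centering, the mean of a gene's probe sets, a robust variance trend, array weights and leaving out each mouse.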

Additional observations from a re-analysis of the deposited data

How the results depend on the processing

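Of the 39 genes, 28 kept the sign of their difference under every alternative run, 22 negative and 6 positive. None passed an adjusted p under 0.05 in any alternative. The count lower at an unadjusted p under 0.05, 3, lay between 0 (without mouse 3007 or mouse 1001) and 4 with each mouse left out, and was 2 after quantile normalization and 4 on the mean of probe sets. With a robust variance trend it was 4, adding Acot1, and 1 gene (Cpt1a) was higher. Over all genes, the share lower at that level was 2.39% to 3.49% with each mouse left out. It was 2.89% after quantile normalization and 2.80% on the mean of probe sets. Under the robust variance trend the share over all genes was not computed, so its counts have no such comparison. Genes without overlap numbered 3 to 11 lower and 2 to 5 higher with each mouse left out, when 9.77% to 12.2% and 8.03% to 9.31% of all genes did so, and 1 higher after quantile normalization. The thioesterase median lay between -0.33 and -0.12 log2 with each mouse left out. The sign of Eci2 turned after quantile normalization (-0.0049 log2). With each mouse left out, the sign turned in Abcd2 (-0.049 to 0.038), Acadl (-0.057 to 0.058), Acadm (-0.065 to 0.053), Acadvl (-0.076 to 0.035), Acox2 (-0.23 to 0.013), Angptl4 (-0.055 to 0.094), Decr1 (-0.017 to 0.12), Echs1 (-0.044 to 0.013), Eci2 (-0.029 to 0.058), Etfb (-0.0069 to 0.037) and Slc25a20 (-0.10 to 0.035), all in log2. The causes were not tested. Background correction was not varied, since scanner files were not used here. No paired analysis was possible because the labels give the mice no shared replicate numbers.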

Other observations

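Acot8, for a peroxisomal thioesterase, shared its probe set with Snx21, and this probe set had 7.07, 7.10 and 6.93 in MUTYH-null livers and 7.07, 7.07 and 7.27 log2 in wild-type livers. The signal cannot be given to either gene. A second probe set of Acot4 had 6.21, 5.97 and 6.23 in MUTYH-null livers and 6.35, 6.50 and 6.62 log2 in wild-type livers, without overlap, whereas the Acot4 probe set used in the comparison did overlap. A second probe set of Crat had a difference of -0.06 log2, where the one used in the comparison had -0.20 log2.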
